A study of Mus musculus and Homo sapiens with 8 samples.

Results

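The genes described here encode 9 receptors through which growth factors and cytokines reach blood-forming cells: KIT, FLT3, EPOR, IL3RA, CSF2RA, CSF2RB, CSF3R, CSF1R and IL1RL1. They were taken by symbol from the count tables, as written for human cells and with only the first letter capital for mouse cells. They are 9 of 26538 distinct symbols over both species. All 9 stand among the 17097 genes of the mouse tables and 8 among the 20296 genes of the human tables, where FLT3 is not listed, so its human level was not analysed here. The mouse libraries came from bone marrow LSK cells of strain C57BL/6, either WT (2 libraries) or Anp32b-KO (2 libraries). LSK stands for lineage-negative, Sca-1-positive, c-Kit-positive cells, among them stem cells and early progenitors of all blood lineages. The human libraries came from KU812, an established chronic myelogenous leukemia line with basophil features, given a control hairpin (shNC, 2 libraries) or a hairpin against ANP32B (shANP32B, 2 libraries). The sources used here do not state the age of the mice, the cells in which Anp32b was deleted or how many animals went into a library. A single hairpin label against ANP32B is given, so other effects of that hairpin and loss of ANP32B cannot be told apart. Nothing in the labels ties replicates to different mice or dishes, and the p-values therefore describe the scatter among these libraries, which may be technical.

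KIT, FLT3 and CSF1R are receptor tyrosine kinases, which pair up and phosphorylate themselves when stem cell factor, FLT3 ligand, or CSF1 and IL-34 bind. The receptors for erythropoietin (EPOR), G-CSF (CSF3R), IL-3 and GM-CSF have no kinase of their own and signal through bound Janus kinases, chiefly JAK2, to STAT5 or STAT3. IL3RA and CSF2RA are the ligand-binding alpha chains for IL-3 and GM-CSF, and each pairs with the common beta chain CSF2RB, which carries the signal. IL1RL1, or ST2, is the IL-33 receptor and is typical of mast cells and basophils. In marrow, KIT and FLT3 mark stem and multipotent cells, EPOR erythroid progenitors, CSF3R the neutrophil lineage and CSF1R the monocyte lineage.

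Mice carry a second beta chain gene, Csf2rb2, which serves IL-3 only and lies near Csf2rb on chromosome 15 of GRCm38. Csf2rb spans 78325752 to 78353847 on the plus strand and Csf2rb2 spans 78282507 to 78305721 on the minus strand, in the reference annotation. Their coding sequences of 2691 and 2637 bases were identical at 95.2% of aligned bases. Of the 50-base words in Csf2rb transcripts 12.3% also occur in Csf2rb2, and of those in Csf2rb2 18.4% occur in Csf2rb. The longest stretch shared base for base has 242 bases, at coding positions 2083 to 2324 of either gene, chr15:78348577-78348818 in Csf2rb and chr15:78284630-78284871 in Csf2rb2. It is coding sequence, and is shown because a read from it matches both genes:
Csf2rb and Csf2rb2: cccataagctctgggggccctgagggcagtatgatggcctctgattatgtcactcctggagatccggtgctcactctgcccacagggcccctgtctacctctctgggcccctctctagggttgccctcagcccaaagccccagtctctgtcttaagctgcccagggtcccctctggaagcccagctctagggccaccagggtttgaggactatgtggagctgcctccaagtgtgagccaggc
How reads that match both genes were counted is unknown here, so the counts of this pair are uncertain to that extent. Other genes share 14.3% of the 50-base words of Csf1r (Hmgxb3) and 10.7% of those of Csf3r (mainly AC105061.2). For the other 6 receptors the share was at most 0.0490%.

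Windows of 250 bases before the gene start were at hand for 7 of the 9 mouse receptors (RefSeq, GRCm38.p6). The GATA motif AGATAA, searched on both strands, occurs in 9.99% of all 32817 such windows. Among the receptors it occurs in the windows of Epor and Il1rl1 and in none of Kit, Flt3, Il3ra, Csf2ra or Csf3r. A match describes letters, not binding. These windows are printed because EPOR and IL1RL1 were the receptors that passed the test in KU812 cells. Capitals mark the motif, which reads TTATCT where it lies on the other strand:
Epor, chr9:21963577-21963826, minus strand: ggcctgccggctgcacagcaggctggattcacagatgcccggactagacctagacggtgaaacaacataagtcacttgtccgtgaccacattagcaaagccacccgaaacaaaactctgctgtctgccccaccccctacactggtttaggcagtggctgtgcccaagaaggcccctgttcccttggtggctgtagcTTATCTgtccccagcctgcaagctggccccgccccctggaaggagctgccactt
Il1rl1, first start, chr1:40429320-40429569, plus strand: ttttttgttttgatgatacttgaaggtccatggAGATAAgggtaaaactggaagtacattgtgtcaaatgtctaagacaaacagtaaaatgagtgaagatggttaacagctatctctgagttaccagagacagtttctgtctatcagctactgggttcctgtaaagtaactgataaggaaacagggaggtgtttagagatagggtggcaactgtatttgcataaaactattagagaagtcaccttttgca
Il1rl1, second start, chr1:40439379-40439628, plus strand: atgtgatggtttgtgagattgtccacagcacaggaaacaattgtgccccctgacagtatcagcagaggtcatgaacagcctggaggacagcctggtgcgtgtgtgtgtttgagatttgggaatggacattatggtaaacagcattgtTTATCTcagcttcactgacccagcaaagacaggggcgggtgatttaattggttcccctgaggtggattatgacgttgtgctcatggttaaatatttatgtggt
The PU.1 motif GAGGAA, found in 23.3% of all windows, occurs in those of Kit, Csf2ra and Csf3r and in none of the windows printed here. The motif CCACCC, also searched, is in 28.1% of all windows and in those of Kit, Epor, Csf2ra, Csf3r and the first Il1rl1 start. The STAT motif TTCNNNGAA, in 7.01% of all windows, occurs in no window of the 7 receptors. No human sequence was used here.

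Library totals ran from 10549358 to 15683480 counts for LSK and 24416691 to 28209409 for KU812, so a floor of 3 counts stands for 0.191 to 0.284 and 0.106 to 0.123 CPM (counts scaled to a common library size). Anp32b stood at 794 and 730.4 CPM in WT and 201 and 249 CPM in KO cells (edgeR adjusted p = 0.148). ANP32B fell from 250.2 and 286 CPM with shNC to 40.4 and 38.2 CPM with shANP32B (edgeR adjusted p = 5.18e-08). The first WT library stood apart, with 1.44% of its counts on immunoglobulin genes against 0.322% to 0.655% in the other LSK libraries. The 2 WT libraries were less alike (rank correlation over genes 0.977) than any WT and KO library (0.979 to 0.987). The spread between WT libraries thus limits each comparison of genotypes below. Ly6a, which encodes Sca-1, was read at 60.2 and 45.5 CPM in WT and 37.8 and 43.4 CPM in KO cells. Both KO libraries lay below both WT libraries, at a log2 fold change of -0.38 (edgeR adjusted p = 0.986). Most stem cell markers went the other way: of 13 tested, Ly6a among them, 10 had a positive log2 fold change and 3 a negative one. Their median was 0.11, and 0 passed. In 5 both KO libraries lay above both WT libraries and in 2 below, beside 17.7% and 15.6% of all genes. Cd3e, a T cell marker, was read at 0.569 to 2.56 CPM. In KU812 cells the mast cell and basophil genes HDC and FCER1A, which were not chosen by p, were read at 1092 to 1256 and 594 to 788 CPM.

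In LSK cells no receptor passed the test between genotypes. Per kilobase of exon, Csf3r and Flt3 stood highest and Epor and Il1rl1 lowest in both WT and KO cells. Of 14598 genes 0 passed an adjusted p of 0.05 by edgeR (0% called), and Anp32b was among those that did not. Of the 9 receptors 0 passed. An unadjusted p under 0.05 was reached by 657 genes (4.5%) and by 1 receptor, Csf1r. DESeq2 called 15 genes and limma-voom 2, with 0 receptors by either tool.

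**Figure D1:**
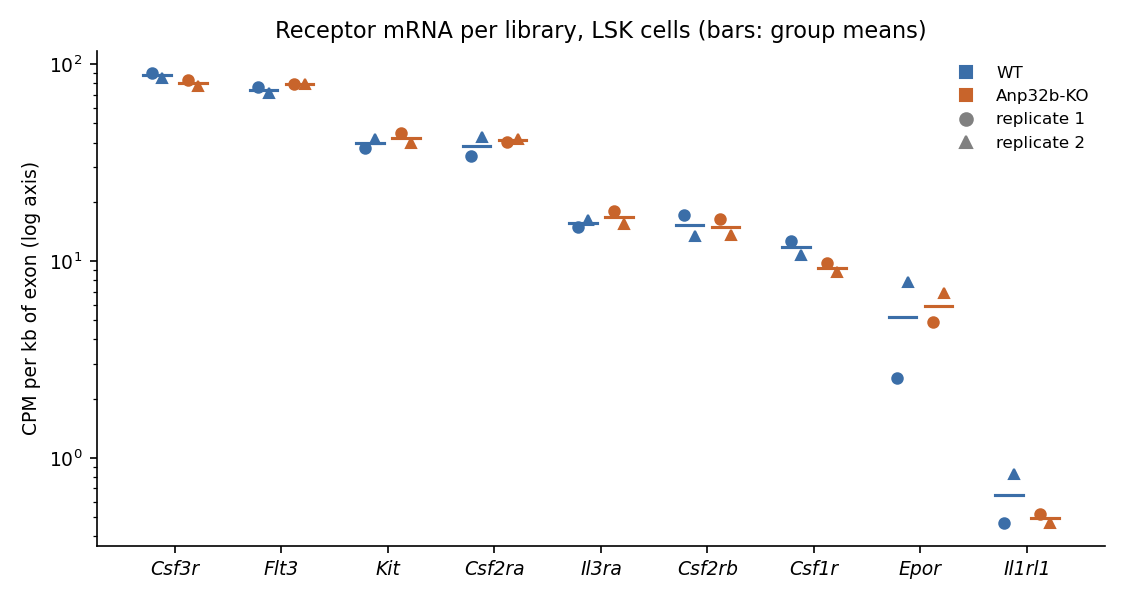
Level of each receptor in LSK cells in CPM per kb of exon (log axis), with 1 point per library (circle replicate 1, triangle replicate 2) and a bar at each group mean. Libraries of both genotypes lie close together for most receptors, while the WT libraries differ most for Epor, at 2.54 and 7.82.

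Levels of different genes were compared per kilobase of exon. In WT cells Csf3r stood at 87.7 ± 3.21 CPM per kb and Flt3 at 73.9 ± 3.46 (SD, n = 2). Kit at 39.6 ± 2.94 and Csf2ra at 38.5 ± 5.94 did not differ beyond their spread, nor did Il3ra at 15.5 ± 0.872 and Csf2rb at 15.3 ± 2.60. Below them came Csf1r at 11.7 ± 1.38, Epor at 5.18 ± 3.74 and Il1rl1 at 0.648 ± 0.258 CPM per kb. The order of the means was the same in KO cells. There Csf3r at 80.1 ± 3.94 and Flt3 at 79.7 ± 0.0629 lay within their spread, and the lowest were again Epor at 5.91 ± 1.42 and Il1rl1 at 0.493 ± 0.0373 CPM per kb.

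Kit, the stem cell factor receptor on which the cells are sorted, was read at 335 and 372 CPM in WT and 399 and 355 CPM in KO cells. The genotypes overlapped, and the log2 fold change was 0.094 (95% interval -0.26 to 0.45). Flt3, the receptor of multipotent progenitors, was read at 471 and 441 CPM in WT and 492 and 492 CPM in KO cells. Both KO libraries lay above both WT libraries, at a log2 fold change of 0.11 (-0.23 to 0.45, adjusted p = 0.989). Csf1r, the receptor of the monocyte lineage, was read at 73.4 and 62.1 CPM in WT and 56.3 and 50.6 CPM in KO cells. Both KO libraries lay below both WT libraries. Its log2 fold change of -0.34 had an interval of -0.68 to -0.0049 (edgeR unadjusted p = 0.0475, adjusted p = 0.986), and was -0.22 without the first WT library.

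Csf3r, the G-CSF receptor, was read at 325 and 308 CPM in WT and 299 and 279 CPM in KO cells. The KO libraries were the lower pair, at a log2 fold change of -0.13 (-0.46 to 0.20, adjusted p = 0.988). Thus 3 of 9 receptors had genotypes that did not overlap, beside 33.2% of all genes: 1 was higher in KO cells (17.7% of all genes) and 2 were lower (15.6%). Epor, the erythropoietin receptor, was read at 5.05 and 15.6 CPM in WT and 9.76 and 13.8 CPM in KO cells. The first WT library held the lowest value and the second the highest, so the KO libraries lay between them. The log2 fold change of 0.21 (-0.90 to 1.32) was -0.40 without the first WT library, -0.065 without the second KO library and 1.22 without the second WT library, where it passed (edgeR adjusted p = 0.0409). Of 11 erythroid markers tested 0 passed, and their summed level was 244 and 234 CPM in WT and 202 and 251 CPM in KO cells. Tfrc alone made up 173 and 155 CPM of that sum in WT and 131 and 139 CPM in KO cells. The first WT library was not the lowest in this sum, which rests mostly on Tfrc. Single members differed: Klf1 and Rhag, chosen after their values were seen, were lowest in that library at 6.62 and 4.52 CPM against 14.7 to 26.1 and 8.62 to 16.1 CPM in the others, while Tfrc was highest there at 173 CPM against 131 to 155. Their part in the Epor value was not tested.

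The chains of the IL-3 and GM-CSF receptors overlapped between genotypes. Il3ra was read at 44.2 and 47.9 CPM in WT and 53.1 and 45.8 CPM in KO cells, a log2 fold change of 0.10 (-0.24 to 0.44). Csf2ra was read at 98.5 and 123 CPM in WT and 116 and 119.6 CPM in KO cells, a log2 fold change of 0.093 (-0.26 to 0.45). The shared chain Csf2rb was read at 125 and 98.0 CPM in WT and 119 and 99.2 CPM in KO cells. Its log2 fold change of -0.034 (-0.43 to 0.36) turned to 0.014 with library totals as the scaling. Its copy Csf2rb2 was read at 28.6 and 29.7 CPM in WT and 29.4 and 21.0 CPM in KO cells (-0.21, -0.68 to 0.26). Il1rl1, the IL-33 receptor, had 49 and 60 counts in WT and 44 and 46 in KO libraries. At this depth its interval ran from -1.36 to 0.59 on the log2 scale, and the genotypes overlapped.

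Csf1r, Csf3r and the summed level of neutrophil and monocyte markers were each lower in both KO libraries than in both WT libraries. Of 17 neutrophil and monocyte markers tested, 0 passed and 16 had a negative log2 fold change. In 12 both KO libraries lay below both WT libraries, beside 15.6% of all genes. The list median was -0.58, beside -0.0079 over all genes. Their summed level was 2032 and 1851 CPM in WT and 1454 and 1330.1 CPM in KO cells. The granule and calcium-binding protein genes Ngp, Lcn2 and S100a9 stood at -0.69, -0.70 and -0.58. Of 8 macrophage markers 6 were negative, with summed levels of 113 and 109.8 CPM in WT and 85.2 and 104 CPM in KO cells. Lower values were not particular to these lists. Medians were also negative for T and NK cell (-0.66, 5 of 7 negative), stromal and endothelial (-0.48, 7 of 8) and mast cell and basophil markers (-0.36, 8 of 11). Myeloid progenitor markers stood at -0.17 (8 of 9 negative) and megakaryocyte markers at -0.088 (5 of 9). Erythroid and B cell medians were positive, at 0.20 and 0.11. The part of any of these cells in the receptor values was not tested. In bulk libraries fewer cells of a type and less RNA per cell cannot be told apart.

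Other genes of the pathway did not pass in LSK cells either. Csf1, the Csf1r ligand, had 178 and 137 counts in WT and 105 and 133 in KO libraries (log2 fold change -0.47, edgeR adjusted p = 0.986). Flt3l stood at 0.20, and at -0.11 without the first WT library. Csf2 and Csf3 had at most 9 counts in a library and were not tested, and the other 6 ligands are not listed in these tables. Calls numbered 0 of 20 other cytokine and growth factor receptors, 0 of 38 signal transducers, 0 of 20 feedback inhibitors, 0 of 17 STAT5 targets and 0 of 20 transcription factors of receptor genes. List medians lay between -0.10 and 0.048. Without the second WT library 830 of 15352 genes passed (5.41%), among them 3 other receptors, 3 transducers, 3 STAT5 targets and 6 transcription factors.

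In KU812 cells the erythropoietin receptor fell and the IL-33 receptor rose with the ANP32B hairpin. EPOR was 1.58-fold lower and IL1RL1 1.37-fold higher in group means. These are 2 of 7 receptors tested, beside 16.6% of 16529 genes by edgeR: 1 rose (7.53% of all genes) and 1 fell (9.06%). With library totals as the scaling the calls over all genes were split 1474 higher and 1182 lower in place of 1244 and 1497, and both receptors passed. An unadjusted p under 0.05 was reached by 5 of 7 receptors, beside 30.5% of all genes.

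**Figure D2:**
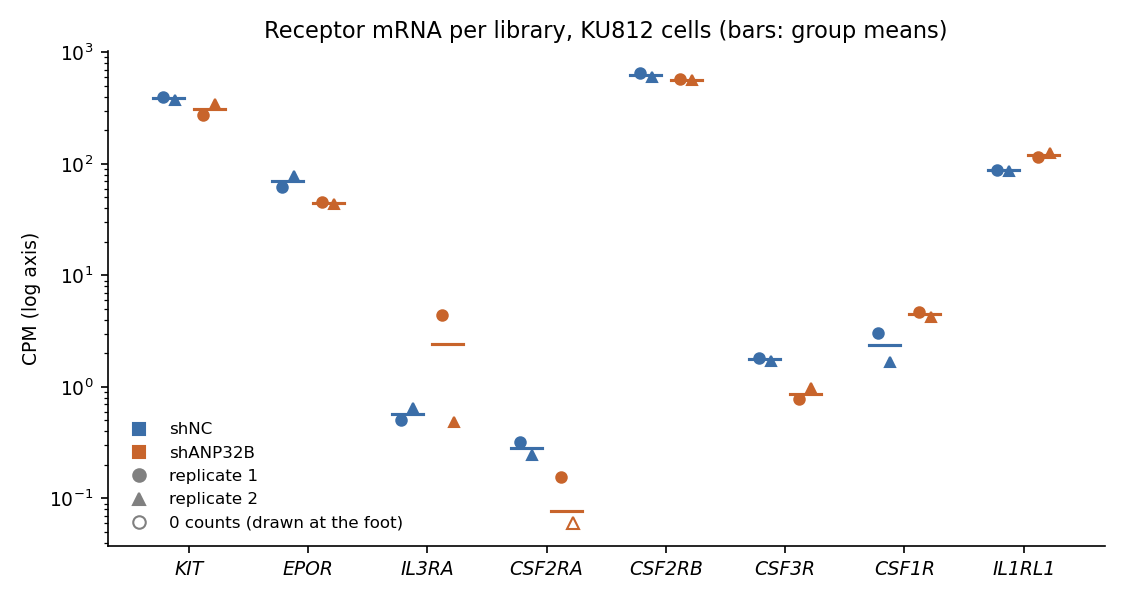
CPM of the 8 listed receptors in KU812 cells (log axis), with 1 point per library (circle replicate 1, triangle replicate 2), a bar at each group mean and an open symbol for 0 counts. Length is not taken into account, so only groups of the same gene can be compared; EPOR and IL1RL1 separate by group, and IL3RA stands high in 1 shANP32B library.

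EPOR, which carries the survival signal of erythropoietin, was read at 61.8 and 78.4 CPM with shNC and 45.3 and 43.4 CPM with shANP32B. Both knockdown libraries lay below both controls. The log2 fold change was -0.66, SE 0.14 (95% interval -0.96 to -0.36, edgeR adjusted p = 0.00636), and over 10 other settings it ran from -0.83 to -0.49 and passed in each. Erythroid markers were lower in the same libraries: of 13 tested 7 fell and 0 rose, beside 9.06% and 7.53% of all genes. Their median was -0.64 beside 0.0041 over all genes. The globin gene HBB fell by 1.23, the anion exchanger gene SLC4A1 by 1.18, the membrane protein gene EPB42 by 0.85 and TFRC, which encodes the iron uptake receptor, by 0.66 on the log2 scale. The summed level of the list was 8657 and 9584 CPM with shNC and 6179.8 and 6527 CPM with shANP32B. It rests mostly on TFRC and the globin gene HBG2, the latter named after its values were seen. TFRC made up 3837 and 4186 CPM of it with shNC and 2444 and 2638 CPM with shANP32B. HBG2 made up 3206 and 3754 CPM with shNC and 2331 and 2524 CPM with shANP32B. Other members did not pass, such as RHAG (0.077), named after its value was seen. The part of the erythroid program in the EPOR value was not tested.

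IL1RL1 was read at 88.7 and 86.9 CPM with shNC and 114 and 126 CPM with shANP32B. Both knockdown libraries lay above both controls. The log2 fold change was 0.45, SE 0.11 (0.21 to 0.70, edgeR adjusted p = 0.0158). Without the second shANP32B library it was 0.37 and did not pass (adjusted p = 0.245). Of 12 mast cell and basophil markers tested 9 had a positive log2 fold change (median 0.33). Of these 12 genes 4 rose and 3 fell, beside 7.53% and 9.06% of all genes. The tryptase gene TPSB2 rose by 1.26 on the log2 scale, with near-identical tryptase copies making its counts uncertain. The 3 that fell, EPX, CLC and PRG2 (by 4.48, 2.69 and 1.48), encode proteins also typical of eosinophils. The summed level of that list overlapped between groups, at 6221 and 5736 CPM with shNC and 6140.4 and 6206 CPM with shANP32B. PRG2 alone made up 1740 and 1541 CPM of it with shNC and 544 and 631 CPM with shANP32B. IL1RAP, the partner chain of IL1RL1 and named after its value was seen, stood at -0.29 (adjusted p = 0.143).

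KIT was read at 395 and 378 CPM with shNC and 275 and 344 CPM with shANP32B. Both knockdown libraries were the lower ones, yet the log2 fold change of -0.32 (-0.57 to -0.072) did not pass (adjusted p = 0.0761). It passed without the first shNC library (-0.29, adjusted p = 0.0237), the second shNC library (-0.36, 0.00252) or the second shANP32B library (-0.50, 0.0338), and was -0.17 without the first shANP32B library. KITLG, the gene of its ligand, had 154 and 91 counts with shNC and 64 and 64 with shANP32B. That log2 fold change of -0.87 did not pass (adjusted p = 0.0989). It was -1.13 without the second shNC library, where it passed (0.0114), and -0.56 without the first (0.379).

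CSF2RB, the common beta chain, was read at 650.1 and 607 CPM with shNC and 574 and 564 CPM with shANP32B. The groups did not overlap, but the log2 fold change of -0.14 (-0.35 to 0.059) did not pass (adjusted p = 0.337). Its alpha chains were close to the floor. CSF2RA had 9 and 6 counts with shNC and 4 and 0 with shANP32B, too few to be tested, and 0 counts allow up to 0.123 CPM. IL3RA had 14 and 16 counts with shNC and 114 and 12 with shANP32B. The first shANP32B library alone was high, 6.76-fold above the next, and the other lay below both controls. The log2 fold change of 2.08 did not pass (adjusted p = 0.0815). It was -0.25 without that library and 2.91 without the other (adjusted p = 0.939 and 7.69e-05). It passed without the first or second shNC library at 1.90 and 2.27 (adjusted p = 0.0107 and 0.00220). IL5RA, the IL-5 alpha chain that also pairs with CSF2RB, fell from 13.3 ± 1.55e-04 to 7.14 ± 1.20 CPM (SD, n = 2; log2 fold change -0.90, edgeR adjusted p = 0.0142).

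CSF3R and CSF1R were read with few counts in KU812 cells. CSF3R had 51 and 42 counts with shNC and 20 and 24 with shANP32B, the lower pair. Its log2 fold change of -1.02 (-2.09 to 0.039) did not pass (adjusted p = 0.180). CSF1R had 85 and 41 counts with shNC and 121 and 106 with shANP32B, the higher pair. Its log2 fold change of 0.92 (0.14 to 1.70) did not pass (adjusted p = 0.103). It was 1.42 without the first shNC library, where it passed (0.00516), and 0.55 without the second (0.310). In all, 6 of 7 tested receptors had groups that did not overlap, beside 58.5% of all genes: 2 were higher with shANP32B (29.5% of all genes) and 4 lower (28.9%).

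**Figure D3:**
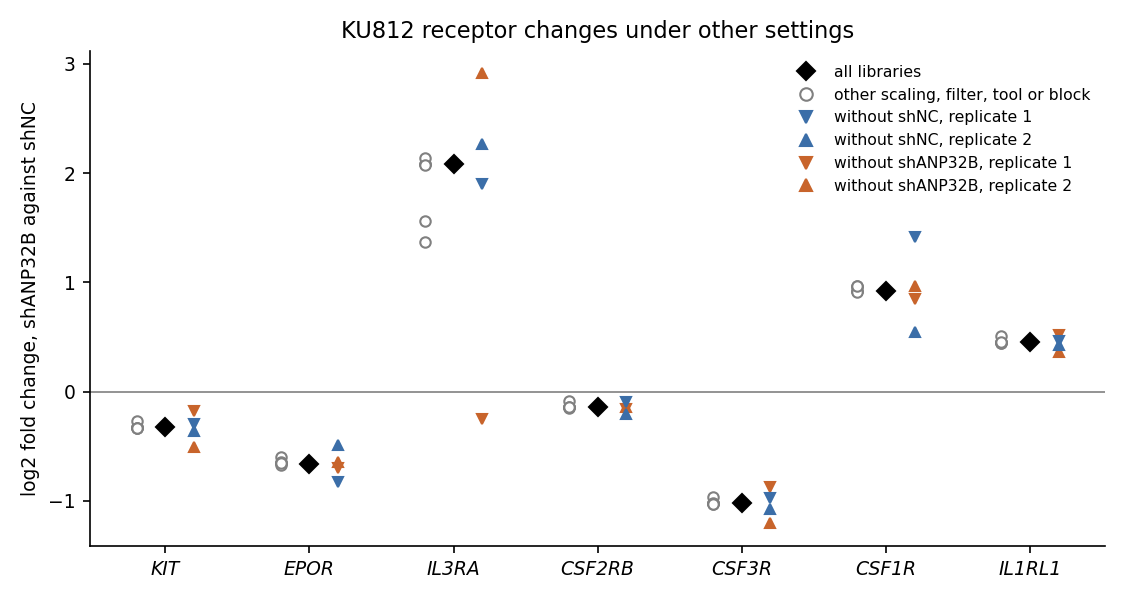
Log2 fold change (shANP32B against shNC) of the 7 tested receptors with all libraries (diamond), under another scaling, filter, tool or block (open circles) and without each library in turn (triangles). EPOR stays below 0 and IL1RL1 above it at each setting shown, while IL3RA turns to -0.25 without the first shANP32B library.

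Of the ligand genes tested in KU812 cells, 1 of 4 passed, beside 16.6% of all genes. For this list and those that follow, 7.53% of all genes rose and 9.06% fell. CSF2, which encodes GM-CSF, had 42 and 46 counts with shNC and 292 and 269 with shANP32B. It rose by 2.71 on the log2 scale, SE 0.28 (edgeR adjusted p = 3.93e-05). CSF1 and FLT3LG stood at -0.071 and 0.38 (adjusted p = 0.712 and 0.313). IL34 had at most 9 counts in a library and was not tested.

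Of 18 other cytokine and growth factor receptors 3 rose and 1 fell (median 0.13), and 0 passed without the second shANP32B library, where 8.07% of all genes did. IL6ST, the shared gp130 chain of the IL-6 family, rose by 0.51 on the log2 scale and TGFBR2, a TGF-beta receptor, by 0.37. PDGFRA had 27 and 23 counts with shNC and 50 and 153 with shANP32B, so the second shANP32B library stood well above the first. Without that library IL6ST, TGFBR2, PDGFRA and IL5RA stood at 0.39, 0.27, 1.00 and -0.75. TGFBR2 also missed the threshold without the first shANP32B library, without the second shNC library and with no filter on low counts (adjusted p = 0.103, 0.0742 and 0.0555), and PDGFRA with limma-voom (0.0788).

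**Figure D4:**
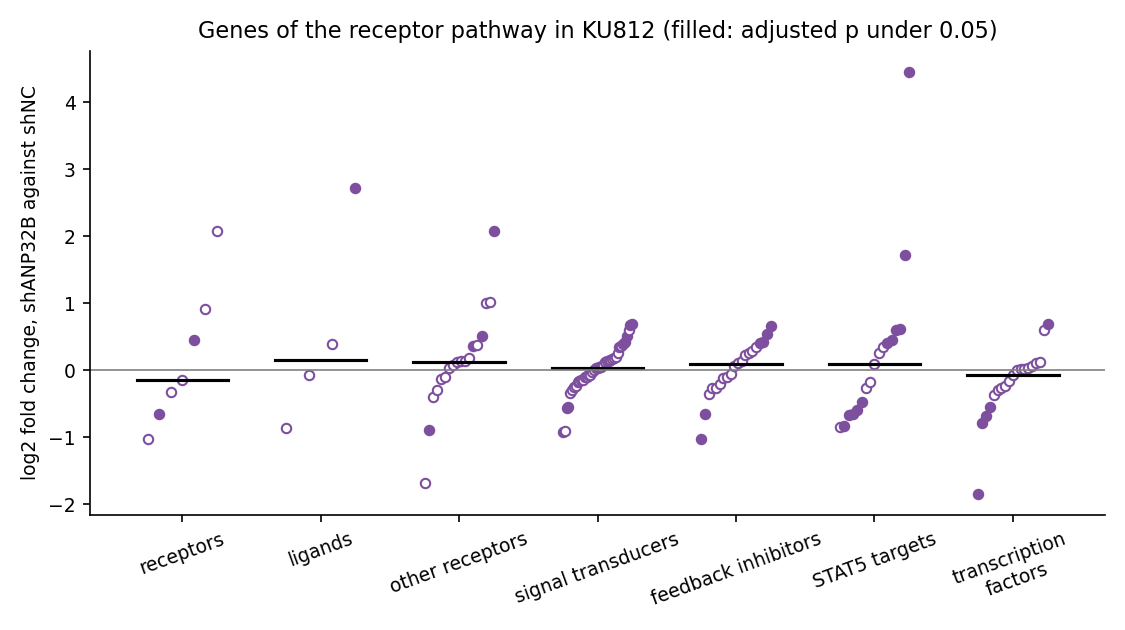
Log2 fold change (shANP32B against shNC) of each tested gene in 7 lists of the receptor pathway in KU812 cells, ordered within each list, with filled points for an adjusted p under 0.05 and a black bar at the list median. Medians lie between -0.14 and 0.16, and called genes stand on both sides of 0 in every list but the ligands.

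Of 39 signal transducers 6 rose and 3 fell (median 0.032), beside 7.53% and 9.06% of all genes. SOS1, an activator of RAS, rose from 418 ± 65.2 to 668 ± 39.4 CPM and the phospholipase gene PLCG2 from 35.8 ± 4.66 to 57.5 ± 0.0223 CPM (SD, n = 2). STAT5B, a carrier of EPOR and IL-3 signals, fell from 416 ± 11.3 to 284 ± 21.7 CPM and the adaptor gene IRS2 from 52.5 ± 17.0 to 27.8 ± 0.177 CPM (SD, n = 2). Without the second shANP32B library 5 transducers passed, beside 8.07% of all genes, and IRS2 stood at -0.55 without the first shNC library on the log2 scale (-0.92 with all). Of 20 feedback inhibitors 4 rose and 2 fell (median 0.087), and 12 passed without the second shNC library, where 22.8% of all genes did. The adaptor genes DOK2 and SH2B3, the latter an inhibitor of JAK2 signaling, rose by 0.67 and 0.55 on the log2 scale. The phosphatase gene PTPN1 and the adaptor gene SLA fell by 0.66 and 1.03, and DESeq2 did not call SLA (adjusted p = 0.201). SLA stood at -0.45 without the second shNC library.

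Of 17 STAT5 targets 6 rose and 5 fell (median 0.090), beside 7.53% and 9.06% of all genes. MYC and the cytokine gene OSM fell by 0.82 and 0.66 on the log2 scale, as did TFRC, which is also among the erythroid markers. IGF1 rose from 6 and 0 counts with shNC to 47 and 82 with shANP32B. Of 19 transcription factors of receptor genes 1 rose and 4 fell (median -0.070). CEBPA, a myeloid factor that acts on CSF3R, fell from 17.5 ± 1.32 to 4.86 ± 0.712 CPM, and the erythroid factor KLF1 from 330.1 ± 15.9 to 206 ± 23.8 CPM (SD, n = 2). ETS1 rose by 0.69 on the log2 scale, and by 0.44 without the second shNC library. GATA1 and GATA2, named after their values were seen, stood at 0.016 and 0.015, and the sign of each turned when single libraries were left out.

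The genes nearest to EPOR in pattern over the 4 KU812 libraries, among 12560 candidates, were NECTIN1 and POLR3A (Euclidean distance of centred log2 CPM 0.0386 and 0.0593). Nearest to IL1RL1 were PCGF3 and ARID4B (0.0228 and 0.0292). With 4 libraries this is a description only.

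No receptor's difference in response between the experiments passed the test, which does not show that they responded alike. An interaction over all 8 libraries and 10771 shared symbols called 239 genes (2.22%) and 0 of 8 shared receptors by edgeR. An unadjusted p under 0.05 was reached by 5 of the 8, beside 1932 genes (17.9%). Among these 5 are CSF2RA, which passed the filter only through the LSK libraries, and IL3RA, whose sign turned without 1 library. The count is thus no evidence of a difference. DESeq2 called 1 receptor, CSF1R (adjusted p = 0.0112), and limma-voom 0. CSF1R stood at -0.34 in LSK and 0.92 in KU812 cells, a difference of 1.27 (0.57 to 1.98, edgeR adjusted p = 0.0668). It passed without the first shNC library (1.80, 0.0259) and without the second WT library (1.38, 0.0391), and was 0.91 without the second shNC library (0.123). Its adjusted p ran from 0.0259 to 0.238 over the libraries left out. CSF3R stood at -0.13 and -1.02, a difference of -0.87 (-1.42 to -0.34, adjusted p = 0.0891). The joint fit estimates the scatter of a gene over all 8 libraries together. Its SE for the CSF3R difference was 0.25, below the 0.49 of the KU812 change in its own fit. For CSF1R the SE was 0.32 beside 0.36 in KU812 cells, and for IL1RL1 0.31 beside 0.42 in LSK cells. The intervals of these differences may thus be too narrow.

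EPOR differed by -0.88 between the experiments (-1.99 to 0.23, edgeR adjusted p = 0.399), and by -0.23 without the first and -1.87 without the second WT library (adjusted p = 0.711 and 0.00745). IL1RL1 differed by 0.83 (0.14 to 1.52, adjusted p = 0.196), by 1.24 without the first WT library, where it passed (0.0303), and by 0.39 without the second (0.400). The IL3RA difference of 2.01 (adjusted p = 0.248) was -0.31 without the first shANP32B library and 2.84 without the second, where it passed (0.00808). KIT differed by -0.40 (-0.84 to 0.045, adjusted p = 0.339) and by -0.24 without the first shANP32B library. CSF2RB differed by -0.092 (-0.54 to 0.36, 0.854). CSF2RA passed the filter on low counts through the LSK libraries. Its difference of -1.85 (-3.73 to -0.13, adjusted p = 0.247) rests on KU812 counts of 9, 6, 4 and 0, and was -5.55 without the first and -0.94 without the second shANP32B library. Fitted against so few counts, it is not a measured size.

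**Figure D5:**
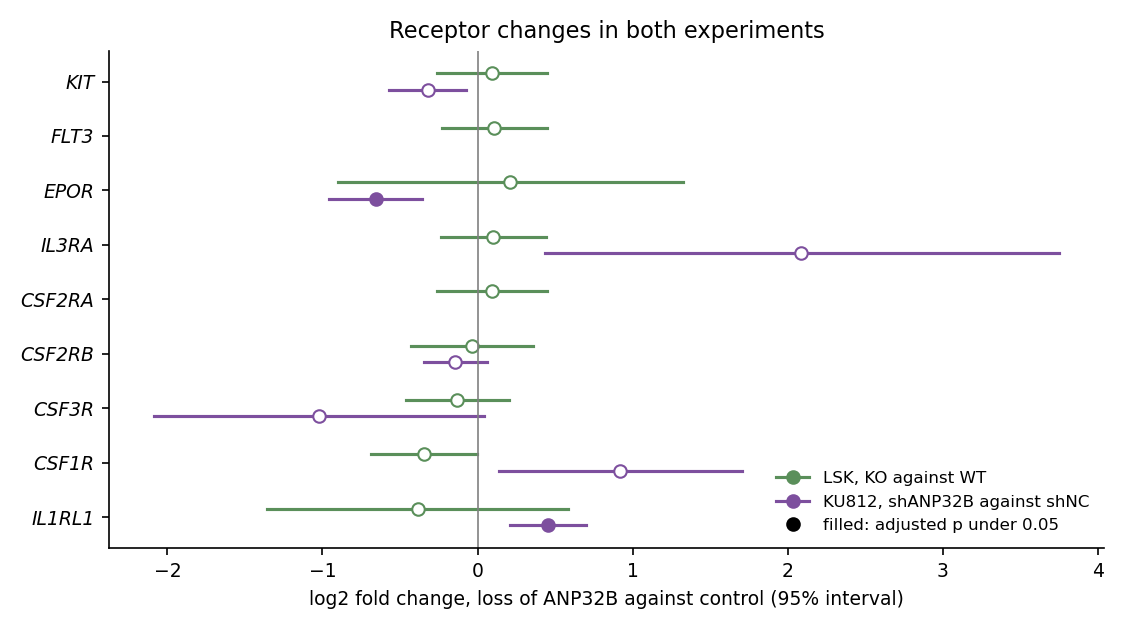
Log2 fold change of each receptor with its 95% interval in LSK cells (green) and KU812 cells (purple), each against its own controls, with filled points for an adjusted p under 0.05. EPOR and IL1RL1 in KU812 cells are the filled points, and FLT3 and CSF2RA have no KU812 value.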

How the data were processed

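Total RNA (1 ug per library, per the labels) was sequenced from 4 LSK and 4 KU812 libraries. The authors deposited raw counts per gene in 1 table per library. Tools named by the submitters' processing notes are HISAT2, TopHat, Cufflinks and DESeq, with builds GRCm38 and GRCh38. Read counter, strand setting and gene annotation: not given in the sources used here. Reads of overlapping or antisense genes may thus be mixed. The lowest sum of counts over the libraries of an experiment was 10 for a listed gene.

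edgeR 4.0.16 in R 4.3.3 was fitted per experiment with filterByExpr, TMM scaling (also used for CPM), the quasi-likelihood test and Benjamini-Hochberg adjustment over all genes, at a threshold of 0.05 and without a replicate block. The interaction used all 8 libraries on shared symbols. Alternatives were RLE factors, library totals, no filter, DESeq2 1.42.0, limma-voom (3.58.1) with quality weights, the replicate block and leaving out each library. The fits were also run on counts simulated with the scatter estimated from these same libraries, which checks the code and not the changes reported here. Replicates differed by more than sampling noise (chi-square per degree of freedom from 7.70 to 47.7), and floors cover counting error only. Receptors and gene lists were chosen with earlier results of these data known. Named are the receptors, their ligands, Csf2rb2, up to 4 genes of each list by smallest p and the 2 genes nearest to each called receptor, apart from those marked in the text.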

Additional observations from a re-analysis of the deposited data

How the results depend on the processing

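EPOR kept its direction and call in KU812 cells under the 10 alternatives tried, and IL1RL1 under 9, the exception being without the second shANP32B library. In LSK cells the genes called numbered 15 with DESeq2, 2 with limma-voom, 15 with the replicate block and 0 to 830 with 1 library left out, and the receptors called 0 to 1 with 1 library left out. In KU812 cells the replicate block called 4164 genes and 5 receptors, adding KIT, CSF1R and IL3RA (adjusted p = 0.00708, 0.0242 and 0.0354) and the ligand gene KITLG (0.0482), and leaving out 1 library called 1413 to 4047 genes and 2 to 5 receptors. The interaction called 570 genes and 1 receptor with DESeq2, 1 receptor with the replicate block (CSF1R, adjusted p = 0.0331), and 38 to 719 genes and 0 to 2 receptors with 1 library left out. The receptor counts stand beside calls over all genes that also changed with the setting. In KU812 cells the replicate block called 25.2% of all genes, against 16.6% without it. In the interaction DESeq2 called 5.29% and the replicate block 2.65%, against 2.22% in the main fit. Receptor counts with 1 library left out are likewise to be read against the gene counts given with them. Over genes, the deviation of replicate 1 from its group mean correlated between control and loss groups at -0.069 (LSK) and 0.12 (KU812). With no label of a shared source, the replicate numbers were not taken as pairs. Signs turned with 1 library left out for Csf2ra (-0.060 to 0.26), Csf2rb (-0.20 to 0.15), Csf2rb2 (-0.47 to 0.012), Epor (-0.40 to 1.22), Il1rl1 (-0.76 to 0.076), Il3ra (-0.0095 to 0.21) and Flt3l (-0.11 to 0.56) in LSK cells, IL3RA (-0.25 to 2.91), GATA1 (-0.10 to 0.11) and GATA2 (-0.12 to 0.15) in KU812 cells, and CSF2RB (-0.27 to 0.069) and IL3RA (-0.31 to 2.84) in the interaction. Csf2rb also turned with library totals (0.014). The cause was not tested. A lone library left in a group was assumed to vary like the other groups. CSF2RA had too few counts in KU812 cells to be tested within that experiment.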

Other observations

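IL3RA was 1 of 2 genes among 16529 tested in KU812 cells that stood at least 4-fold higher in the first shANP32B library than in each other KU812 library. The same count was 4 in each of the other 3 libraries. The fold was chosen after the IL3RA values were seen.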
